A study of Mus musculus with 6 samples.

Results

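Polycomb repressive complex 1 (PRC1) and its partner Bcor were followed through 9 genes: Bmi1, Ring1, Rnf2, Pcgf1, Pcgf2, Cbx2, Cbx7, Cbx8 and Bcor. They were chosen by name, as those probe sets whose platform annotation gave exactly 1 gene symbol that is the current or an older name of a member. All 9 passed the filter on dim probe sets, out of 20059 genes measured. The samples were KLS cells, the Kit-positive, Sca-1-positive, lineage-negative marrow fraction that holds blood stem cells and multipotent progenitors. The 3 wild-type and 3 Dnmt3a+/- arrays differ by the genotype label alone. By its notation, Dnmt3a+/- means that a single copy of Dnmt3a, which encodes a DNA methyltransferase, is intact. The strain, the age, the kind of disrupted allele and whether each array is 1 animal are not stated in the labels. The p-values therefore measure the spread between these arrays, which may be partly technical.

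PRC1 silences genes by attaching ubiquitin to histone H2A and by compacting chromatin. Its catalytic core pairs a RING1 protein (Ring1 or Rnf2) with a PCGF protein, and the PCGF partner decides the form of the complex. Canonical PRC1, built on Bmi1 or Pcgf2, holds a CBX protein that reads the histone H3 mark left by PRC2. The variant form built on Pcgf1 holds Bcor and is brought to CpG-rich DNA by Kdm2b. In blood formation Bmi1 is known for sustaining stem cell self-renewal, chiefly by keeping the cell-cycle inhibitor locus Cdkn2a silent, and BCOR is mutated in human myeloid malignancy.

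The start regions of these genes are rich in CpG, the dinucleotide that DNA methyltransferases modify. In the RefSeq promoter table (build GRCm38.p6, 250 bases before to 50 bases after the start), 7 of the 9 members had a window, 8 windows in all. These windows held 10 to 37 CpG dinucleotides, against a median of 7 over all 32841 windows, and their G and C content was 61.0% to 74.0% against a median of 52.7%. Those of 3 genes are printed below with each CpG in capitals. They belong to Ring1 and Bcor, whose single probe sets are described in detail below, and to Bmi1, the member best known in stem cells.
Ring1, chr17:34024631-34024930, minus strand: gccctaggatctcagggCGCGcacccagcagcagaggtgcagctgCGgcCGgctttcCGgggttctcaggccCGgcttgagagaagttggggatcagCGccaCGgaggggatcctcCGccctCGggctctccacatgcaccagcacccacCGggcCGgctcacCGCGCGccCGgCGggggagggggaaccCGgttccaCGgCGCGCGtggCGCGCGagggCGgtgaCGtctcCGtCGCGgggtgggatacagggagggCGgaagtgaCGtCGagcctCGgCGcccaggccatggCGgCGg
Bcor, chrX:12160297-12160596, minus strand: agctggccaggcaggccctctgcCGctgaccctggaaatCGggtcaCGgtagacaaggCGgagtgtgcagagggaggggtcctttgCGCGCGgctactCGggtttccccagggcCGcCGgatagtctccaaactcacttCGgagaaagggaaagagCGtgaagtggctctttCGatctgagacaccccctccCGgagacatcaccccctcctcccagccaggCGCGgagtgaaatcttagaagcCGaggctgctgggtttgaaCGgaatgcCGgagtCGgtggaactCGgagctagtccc
Bmi1, chr2:18676768-18677067, plus strand: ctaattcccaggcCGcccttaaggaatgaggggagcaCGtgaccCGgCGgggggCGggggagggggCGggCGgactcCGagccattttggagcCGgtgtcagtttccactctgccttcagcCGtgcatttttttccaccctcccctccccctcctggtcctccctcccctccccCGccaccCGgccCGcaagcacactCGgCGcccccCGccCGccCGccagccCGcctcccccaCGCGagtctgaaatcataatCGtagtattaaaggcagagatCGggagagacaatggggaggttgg
The Ring1 window held 37 CpG, a count that only 5.58% of all windows reached. Bmi1 held 23 and Bcor 21. Pcgf2 was the least CpG-rich member with 10, a count that 43.5% of all windows reached. The palindromic E-box CACGTG, the letters read by Myc and Max, lay in the windows of 3 of the 7 members (Bmi1, Pcgf2 and Cbx8) and in 7.15% of all windows. The GC box GGGCGG, on either strand, lay in 6 of the 7, all but Bcor, and in 35.7% of all windows. The E2F core GCGGGAA, on either strand, lay in 0 of the 7 and in 4.60% of all windows. GCGGGAA and GGGCGG can overlap each other. These matches describe the letters only, and DNA methylation was not measured here.

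Dnmt3a itself, which checks the labels, had a gene value of 8.57 ± 0.11 (SD, n = 3) on wild-type arrays, against 8.26 ± 0.10 (SD, n = 3) on Dnmt3a+/- ones. A gene value is the mean log2 intensity of the gene's probe sets that lie above the median level of all probe sets. Every Dnmt3a+/- array was below every wild-type array, as for 9.05% of all genes, by a mean of -0.31 (SE 0.12). This difference did not pass over all genes (limma, adjusted p = 0.631). Genes of similar level, the ninth level class of 10, had median shifts of -0.08, -0.27 and -0.05 on Dnmt3a+/- replicates 1, 2 and 3. One array stood apart: Dnmt3a+/- replicate 2 had a mean correlation across genes of 0.904 with the others, against 0.938 to 0.949 for the remaining arrays. On it the brightest 10% of genes had a median shift of -0.27 against wild-type, and the dimmest 10% one of 0.15. Of the antigens that define KLS cells, Kit differed by -0.11 (SE 0.10) and Ly6a, which encodes Sca-1, by -0.02 (SE 0.13). Of antigens used to subdivide KLS cells, Cd34 differed by -0.23 (SE 0.13), Flt3 by -0.32 (SE 0.16) and Slamf1 by 0.02 (SE 0.13). The Ly6a value changed sign after cyclic loess or a second quantile normalization. Markers of mature lineages were averaged, like all genes, over their probe sets above the filter, so their level does not show that a lineage was present. The mean level of 7 neutrophil markers was 8.40 to 9.18 in wild-type and 8.97 to 9.77 in Dnmt3a+/- cells. All 7 had a positive difference (median 0.43), where 54.3% of all genes had a negative one. Of the monocyte markers 3 of 5 were higher (median 0.16), of the T and NK cell markers 4 of 6 (median 0.17), of the B cell markers 1 of 3 (median -0.03), of the erythroid markers 2 of 2 (median 0.07) and of the megakaryocyte markers 1 of 4 (median -0.05). Some single markers did not overlap, as was so for 15.8% of all genes (9.05% lower and 6.74% higher on every Dnmt3a+/- array). They included 2 of 7 neutrophil markers, Retnlg (0.98, SE 0.22) and Mmp8 (0.64, SE 0.20), both higher on every Dnmt3a+/- array. The monocyte list was divided, with Csf1r (-0.73, SE 0.19) lower and Adgre1 (0.42, SE 0.15) higher on every Dnmt3a+/- array. So was the T and NK cell list, with Klrd1 (-0.71, SE 0.17) lower and Cd3e (0.33, SE 0.12) higher on every Dnmt3a+/- array. The mean level of each list overlapped between genotypes; the B cell list, for one, read 7.04 to 7.43 in wild-type and 7.25 to 7.58 in Dnmt3a+/- cells. The part of these markers in the results below was not tested.

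None of the 9 members differed between genotypes after adjustment over all genes (limma, smallest adjusted p = 0.631), and 0 of them had an unadjusted p under 0.05, as 7.49% of all genes did. Adjusted over all genes, 0 genes passed in the whole table, so the share called was 0%. The members' log2 differences (Dnmt3a+/- less wild-type) ran from -0.25 to 0.09 with a median of -0.05, where the median of all genes was -0.02. Of the 9, 6 were lower in Dnmt3a+/- cells, as were 54.3% of all genes, and 3 were higher. Ring1 alone had genotypes that did not overlap, 1 of 9 members against 15.8% of all genes. In 1 direction, 0 of 9 had such a p and were lower (4.57% of all genes), and 0 of 9 had every Dnmt3a+/- array above wild-type (6.74% of all genes). Without Dnmt3a+/- replicate 2 the median was -0.06 with 6 members lower, and without wild-type replicate 2 it was 0.02 with 3 lower.

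**Figure D1:**
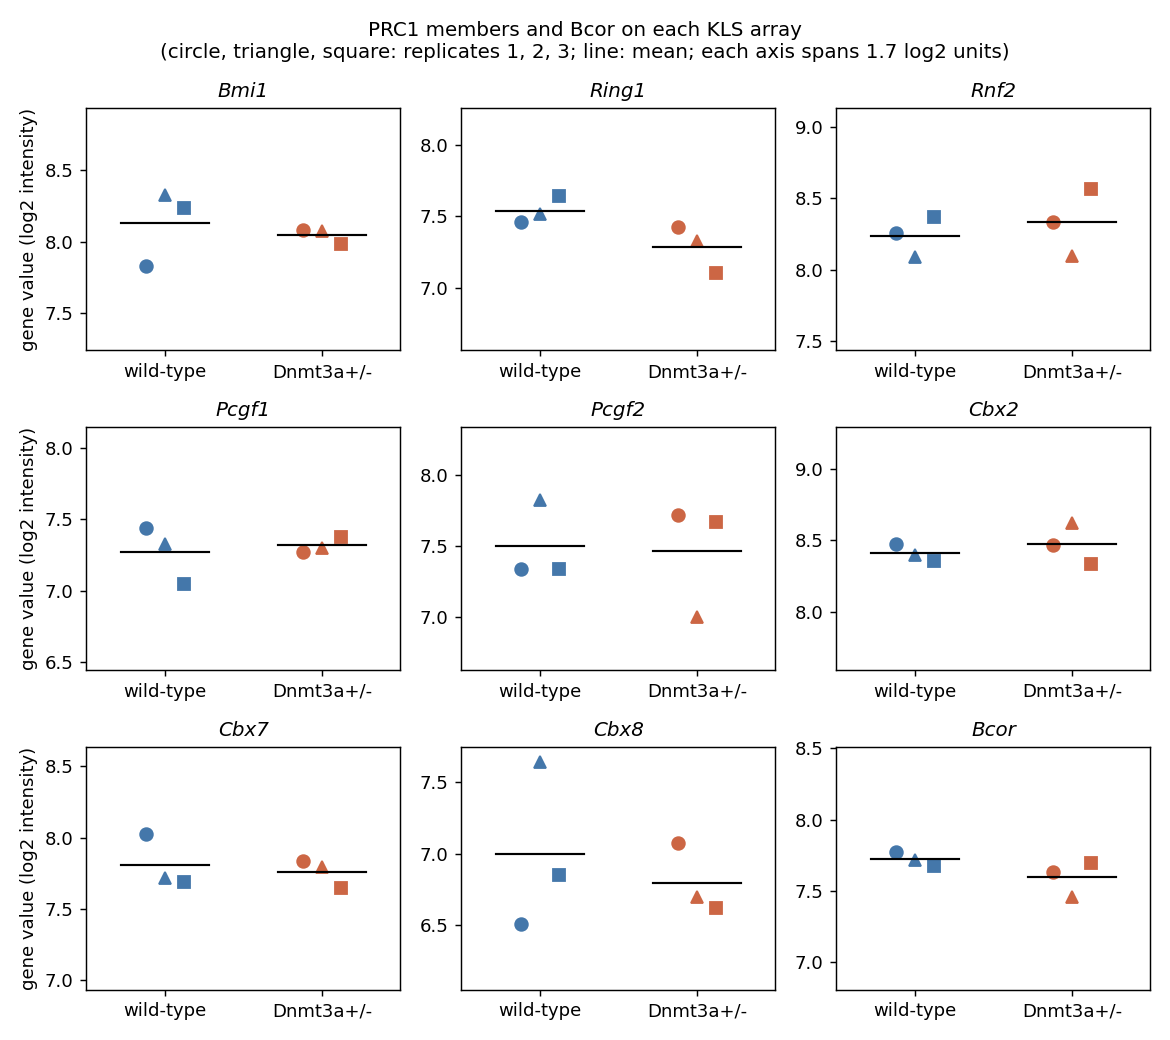
Gene value (log2 intensity, vertical axes of equal span) of each member on the 3 wild-type (blue) and 3 Dnmt3a+/- (orange) KLS arrays, with circle, triangle and square for replicates 1, 2 and 3 and a line at each mean. The genotypes overlap in every panel but that of Ring1, whose wild-type arrays sit between 7.46 and 7.64 and Dnmt3a+/- arrays between 7.10 and 7.42.

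The catalytic pair came first. Ring1, one of the alternative ubiquitin ligases of the complex, read 7.46, 7.51 and 7.64 on the wild-type arrays, against 7.42, 7.33 and 7.10 on the Dnmt3a+/- arrays. All Dnmt3a+/- arrays were lower, but the gap between the closest arrays of the genotypes was only 0.03. The difference of -0.25 (SE 0.13, 95% confidence interval -0.54 to 0.04) did not pass (limma, adjusted p = 0.631), with an exact permutation p of 0.1, which is the minimum for 3 arrays a genotype. Rnf2, also called Ring1B and the other ligase, read 8.25, 8.09 and 8.37 on the wild-type arrays, against 8.34, 8.09 and 8.56 on the Dnmt3a+/- arrays. These arrays overlapped, with replicate 2 of each genotype lowest and Dnmt3a+/- replicate 3 highest. Its difference was 0.09 (SE 0.15, interval -0.25 to 0.44), and 0.21 (SE 0.14) without Dnmt3a+/- replicate 2. It changed sign, to -0.03, when dim probe sets were kept, and to -0.02 without Dnmt3a+/- replicate 3.

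Ring1's value rested largely on 1 dim probe set. Probe set 4684328 read 5.86, 7.29 and 8.24 on the wild-type arrays, against 6.10, 5.07 and 3.50 on the Dnmt3a+/- arrays, a difference of -2.24 (SE 0.79). Its arrays overlapped, and its mean level of 6.01 lay just above the filter at 5.89. It was kept only through the wild-type arrays, with a mean of 7.13 on these and 4.89 on the Dnmt3a+/- arrays. Without it the other 10 probe sets gave Ring1 values of 7.62, 7.53 and 7.58 on the wild-type arrays, against 7.56, 7.55 and 7.46 on the Dnmt3a+/- arrays. On these the genotypes overlapped and the difference was -0.05 (SE 0.10). With the median of the probe sets in place of their mean the sign turned, at 0.12 (SE 0.16). Of the 11, only the bright probe set 5513773, at 8.76, 9.16 and 8.85 on the wild-type arrays, against 8.62, 8.46 and 8.12 on the Dnmt3a+/- arrays, was lower on every Dnmt3a+/- array (-0.52, SE 0.22). Over the gene, 7 of 11 probe sets were lower (50.3% of all probe sets were) and 4 higher.

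Among the PCGF subunits, Bmi1 (Pcgf4) read 7.83, 8.33 and 8.24 on the wild-type arrays, against 8.09, 8.08 and 7.99 on the Dnmt3a+/- arrays. The Dnmt3a+/- arrays lay within the wild-type range, whose low end was wild-type replicate 1. The difference was -0.08 (SE 0.15, interval -0.42 to 0.26). It was 0.02 without wild-type replicate 2, -0.23 without wild-type replicate 1 and 0.07 with only probe sets above the 75th percentile of level. Of its 14 probe sets 10 were lower (50.3% of all probe sets were) and 4 higher in Dnmt3a+/- cells. They moved in opposite directions: 5478074 was lower on every Dnmt3a+/- array (-0.92, SE 0.36), while the brightest, 5460514, read 9.61, 9.80 and 9.56 on the wild-type arrays, against 10.23, 9.87 and 9.91 on the Dnmt3a+/- arrays (0.35, SE 0.19).

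Pcgf2 (Mel18), the close relative of Bmi1 in canonical PRC1, read 7.34, 7.82 and 7.34 on the wild-type arrays, against 7.72, 7.01 and 7.67 on the Dnmt3a+/- arrays. Wild-type replicate 2 was the highest and Dnmt3a+/- replicate 2 the lowest of the arrays. The difference was -0.04 (SE 0.22, interval -0.55 to 0.48), and its sign turned to 0.19 (SE 0.17) without Dnmt3a+/- replicate 2, to 0.12 without wild-type replicate 2 and to 0.14 with array weights. Its probe sets were divided: 11 of 16 were higher in Dnmt3a+/- cells, where 50.3% of all probe sets were lower. Yet 3 had differences of -1.25, -1.23 and -0.84. Of these, 4950534 and 5360576 were bright on the other arrays and dropped on Dnmt3a+/- replicate 2, where they read 5.41 and 6.97 against 8.31 to 8.63 and 8.17 to 8.53 on the other Dnmt3a+/- arrays. Of the 16, 2 were lower on every Dnmt3a+/- array, 5360576 and 5029735 (6.1% of all probe sets were). In the other direction 1 was higher on every one, 5599103 (0.87, SE 0.37), as were 6.31% of all probe sets. Probe set 5029735 was kept, at a mean level of 6.05, only through the wild-type arrays. Its Dnmt3a+/- mean of 5.63 lay below the filter.

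Pcgf1, the subunit that makes the Bcor-containing variant complex, read 7.44, 7.33 and 7.05 on the wild-type arrays, against 7.27, 7.30 and 7.38 on the Dnmt3a+/- arrays. The genotypes overlapped, with wild-type replicate 3 lowest. The difference was 0.04 (SE 0.13, interval -0.26 to 0.35), and it turned to -0.03 with only probe sets above the 75th percentile and to -0.07 without wild-type replicate 3. Its 13 probe sets were balanced, 6 lower and 7 higher, from -0.24 to 0.56.

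Cbx2, a CBX reader subunit, read 8.48, 8.40 and 8.36 on the wild-type arrays, against 8.47, 8.62 and 8.33 on the Dnmt3a+/- arrays, a difference of 0.06 (SE 0.12, interval -0.21 to 0.33). The genotypes overlapped, and 3 of 6 probe sets lay on each side. The sign turned without its farthest probe set (-0.0033), with only probe sets above the 75th percentile (-0.0033) and without Dnmt3a+/- replicate 2 (-0.01). Cbx7, the CBX subunit known for favouring self-renewal of blood stem cells, read 8.02, 7.72 and 7.69 on the wild-type arrays, against 7.84, 7.80 and 7.65 on the Dnmt3a+/- arrays. Wild-type replicate 1 was highest, the rest lay close together, and the difference was -0.05 (SE 0.13, interval -0.35 to 0.25). The sign turned with array weights (0.04), with probe sets above the 75th percentile (0.04), without the farthest probe set (0.01), without wild-type replicate 1 (0.06) and without Dnmt3a+/- replicate 3 (0.01).

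Cbx8, another CBX reader, was the most variable member. It read 6.51, 7.65 and 6.85 on the wild-type arrays, against 7.07, 6.70 and 6.62 on the Dnmt3a+/- arrays, so the lowest and the highest array were both wild-type. The difference was -0.20 (SE 0.28, interval -0.85 to 0.44), was 0.12 without wild-type replicate 2 and -0.45 without wild-type replicate 1. It was -0.03 (SE 0.30) without its farthest probe set, 5505973, which read 3.93 on Dnmt3a+/- replicate 2 and 5.89 to 6.87 on the other arrays. That probe set was kept, at a mean level of 6.09, only through the wild-type arrays. Its mean was 6.63 on these and 5.56, below the filter, on the Dnmt3a+/- arrays.

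**Figure D2:**
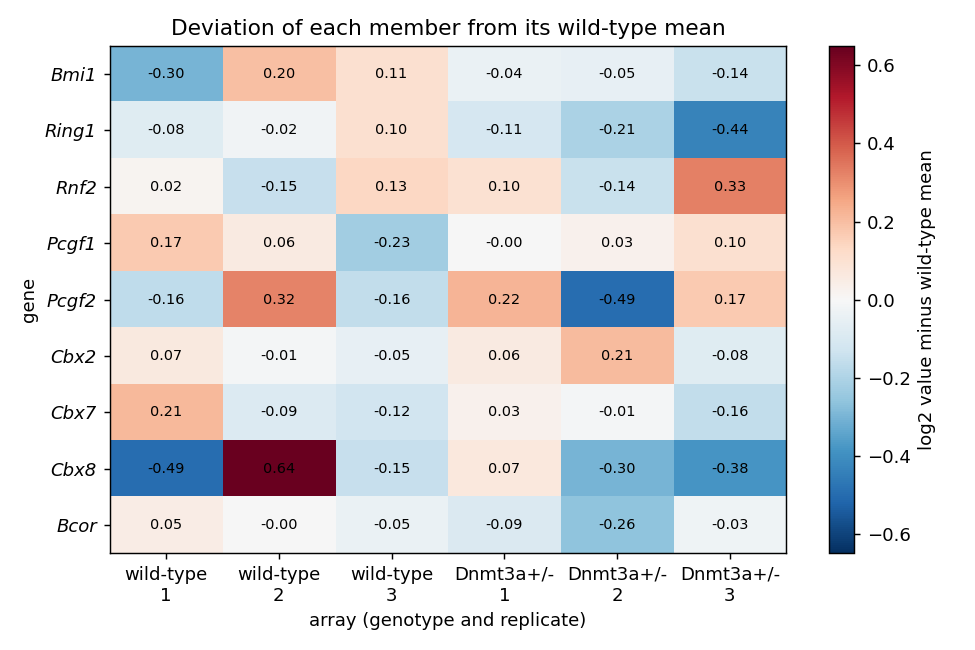
Deviation of each member (rows) on each array (columns) from the member's wild-type mean, in log2 units by colour and number. No array is low or high throughout: Dnmt3a+/- replicate 2 is below the wild-type mean for 7 of 9 members and Dnmt3a+/- replicate 1 for 4 of 9, and the widest spread is that of Cbx8 within wild-type, from -0.49 to 0.64.

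Bcor, the corepressor that joins Pcgf1 in variant PRC1, read 7.77, 7.72 and 7.68 on the wild-type arrays, against 7.63, 7.46 and 7.70 on the Dnmt3a+/- arrays. Wild-type was tight at 7.72 ± 0.05 (SD, n = 3). Dnmt3a+/- replicates 1 and 2 lay below it and replicate 3 within it, and the mean was 7.60 ± 0.12 (SD, n = 3). The difference was -0.13 (SE 0.11, interval -0.38 to 0.13; limma, adjusted p = 0.715) and -0.06 (SE 0.11) without Dnmt3a+/- replicate 2. Genes of similar level, the seventh level class of 10, had a median shift of -0.14 on that array, where Bcor was at -0.26. Without Bcor's farthest probe set, 5335397, the difference was -0.20 (SE 0.12). Every Dnmt3a+/- array was then lower, where 15.8% of all genes did not overlap in either direction.

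Bcor's probe sets came under a pair of names on the platform. All 22 probe sets listed as Bcor were above the filter. Of them 19 were lower in Dnmt3a+/- cells, with a median of -0.20, where 50.3% of all probe sets were lower. A further 9 were listed under the older symbol 2900008C10Rik. Of these 5 passed the filter, 4 of them higher, including 5335397, which read 5.23, 4.54 and 5.58 on the wild-type arrays, against 5.50, 8.36 and 6.66 on the Dnmt3a+/- arrays. The probe sets listed as Bcor alone averaged 7.96, 7.93 and 7.86 on the wild-type arrays, against 7.77, 7.42 and 7.82 on the Dnmt3a+/- arrays. On these every Dnmt3a+/- array was lower, by -0.24 (SE 0.13, interval -0.55 to 0.06), which did not pass either (limma, adjusted p = 0.634). The 5 probe sets of the older symbol differed by 0.39 on average, with a median of 0.20. That average includes 5335397 at 1.72, and the others ran from -0.28 to 0.21. The wild-type mean of 5335397, 5.12, lay below the filter. It was kept, at a mean level of 5.98, only through the Dnmt3a+/- arrays on which it was high. Bcor was also the 1 member with an unadjusted p under 0.05 when only probe sets above the 75th percentile were used (-0.27, SE 0.11, unadjusted p = 0.0405, adjusted p = 0.648, limma). The same held with the median of the probe sets (-0.40, SE 0.13, unadjusted p = 0.0158, adjusted p = 0.727, limma). Under these settings 7.34% and 6.78% of all genes had such a p, so 1 of 9 members is near the background. Over its alternatives the adjusted p of Bcor ran from 0.546 to 0.959. Which transcripts the older symbol's probe sets read was not analysed here.

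**Figure D3:**
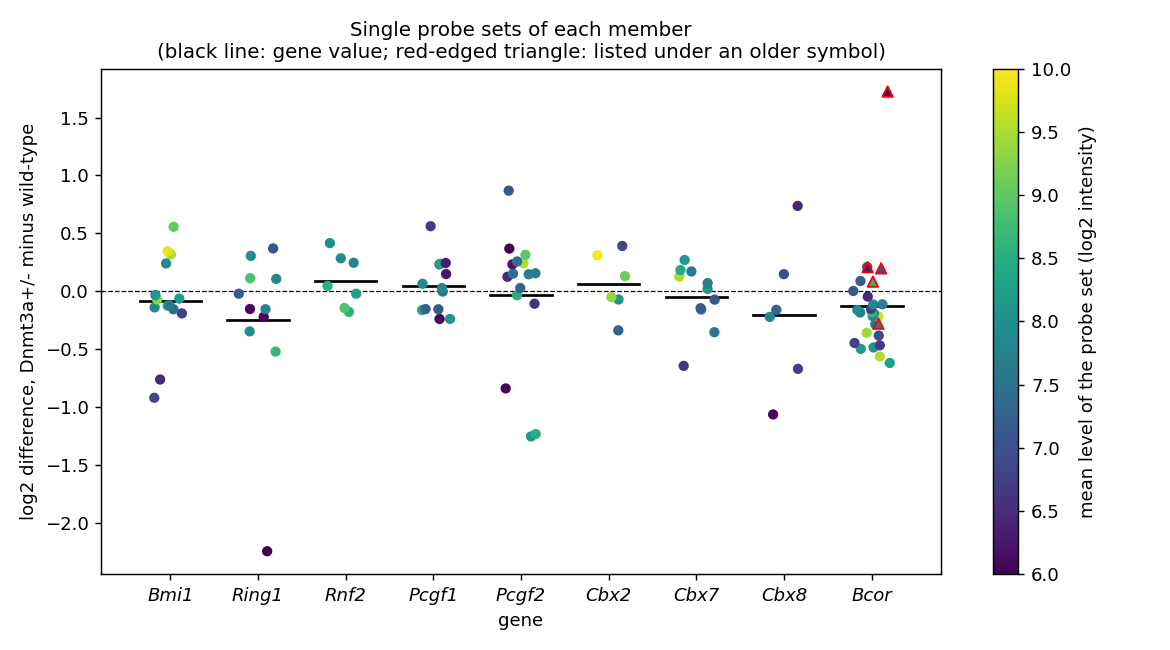
Log2 difference (Dnmt3a+/- minus wild-type) of each of the 111 member probe sets above the filter, by gene, coloured by mean level, with a black line at the gene's own difference and red-edged triangles for probe sets listed under an older symbol. The Ring1 line at -0.25 is pulled down by 1 dim probe set at -2.24, and the Bcor line at -0.13 lies above most of the gene's circles, with a triangle at 1.72.

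Across the 9 members, 130 probe sets were named and 111 were above the filter. The brightest left out had a mean level of 5.88 and the dimmest kept one of 5.98. Of the 111, 63 were lower and 48 higher in Dnmt3a+/- cells, with a median of -0.06, where 50.3% of all 628415 probe sets were lower. An unadjusted p under 0.05 was found for 9 of them, 8.11% where all probe sets gave 6.21%, and 0 passed after adjustment over all probe sets (limma, smallest adjusted p = 0.799), a share of 0% as in the whole table. All Dnmt3a+/- arrays lay below all wild-type arrays in 9 (6.1% of all probe sets) and above them in 4 (6.31% of all). Some probe sets near the filter passed it only through 1 genotype, as given above for Ring1, Pcgf2, Cbx8 and Bcor. Probe sets of a gene share its RNA and its arrays and are not replicates of the genotype.

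Of 24 other genes listed around PRC1, 22 were measured, 16 of them lower and 6 higher in Dnmt3a+/- cells, with a median of -0.11. Of all genes 54.3% were lower. The list counts in 3 enzymes that remove ubiquitin from H2A, which are not PRC1 subunits and were all lower. None of the 22 passed over all genes (limma, smallest adjusted p = 0.631). An unadjusted p under 0.05 (limma) was found for 3, all lower, as for 4.57% of all genes. The genotypes did not overlap for 4, all lower, as for 9.05% of all genes. Without Dnmt3a+/- replicate 2 the median was -0.06 with 14 of 22 lower, after cyclic loess it was -0.07, and without wild-type replicate 2 it was -0.05. On that array the list's median was -0.25, against -0.08 and -0.02 on the other Dnmt3a+/- arrays.

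Pcgf5, the PCGF subunit of another variant complex, had the largest difference of these genes. It read 8.41, 8.56 and 8.49 on the wild-type arrays, against 8.13, 7.64 and 8.27 on the Dnmt3a+/- arrays, with every Dnmt3a+/- array lower. The difference was -0.47 (SE 0.17, interval -0.87 to -0.08; limma, adjusted p = 0.631), and -0.29 (SE 0.12) without Dnmt3a+/- replicate 2. The unadjusted p of 0.0240 rose to 0.0696 without wild-type replicate 2 and 0.0568 without wild-type replicate 3 (limma). Of its 15 probe sets 14 were lower, and 6 were lower on every Dnmt3a+/- array, where 50.3% and 6.1% of all probe sets were. The other PCGF genes, Pcgf3 at 0.01 (SE 0.12) and Pcgf6 at 0.02 (SE 0.11), changed sign with array weights.

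Of the polyhomeotic subunits, which link PRC1 complexes to each other, Phc3 read 8.82, 8.84 and 8.75 on the wild-type arrays, against 8.51, 8.30 and 8.60 on the Dnmt3a+/- arrays. Every Dnmt3a+/- array was lower, by -0.33 (SE 0.12; limma, adjusted p = 0.631), and by -0.25 (SE 0.11) without Dnmt3a+/- replicate 2. Of its 24 probe sets 19 were lower, where 50.3% of all probe sets were. With the median of probe sets the difference was -0.14 (SE 0.13). The unadjusted p of 0.0232 was 0.0591 without Dnmt3a+/- replicate 2, 0.0548 without wild-type replicate 1, 0.0683 without wild-type replicate 2 and 0.05005 with the replicate block (limma). Phc2 differed by 0.01 (SE 0.12) and Scmh1, a further canonical subunit, by -0.17 (SE 0.13). Both signs turned with the median of probe sets.

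Among 12 measured partners of variant PRC1, 10 were lower and 2 higher, where 54.3% of all genes were lower. On Dnmt3a+/- replicate 2 their median was -0.22, against -0.06 and -0.01 on the other Dnmt3a+/- arrays. All genes of the eighth level class of 10, which are of similar level, had -0.23, against -0.07 and -0.05. Of these partners 0 were past the adjusted threshold (limma). Only 1, Auts2, had an unadjusted p under 0.05, as had 7.49% of all genes. Auts2, a partner of the Pcgf3 and Pcgf5 complexes, read 7.24, 7.31 and 7.30 on the wild-type arrays, against 7.08, 7.09 and 6.93 on the Dnmt3a+/- arrays, a difference of -0.25 (SE 0.10). It was -0.12 (SE 0.17) with probe sets above the 75th percentile, and its unadjusted p of 0.0436 rose to 0.506 there, to 0.109 with the median of probe sets, to 0.0567 without the filter, to 0.0902 with the replicate block and to between 0.0636 and 0.1196 without any 1 array other than Dnmt3a+/- replicate 2 (limma). Mga, the DNA-binding scaffold of the Pcgf6 complex, read 8.69, 8.83 and 8.61 on the wild-type arrays, against 8.53, 8.34 and 8.53 on the Dnmt3a+/- arrays, a difference of -0.25 (SE 0.12). The genotypes of both did not overlap, with every Dnmt3a+/- array lower, as for 9.05% of all genes. Bcorl1, the relative of Bcor, overlapped and differed by -0.14 (SE 0.10). The 3 enzymes that remove ubiquitin from H2A were lower without passing: Mysm1 by -0.33 (SE 0.17), Bap1 by -0.24 (SE 0.21) and Usp16 by -0.19 (SE 0.14). Dnmt3a+/- replicate 2 was the lowest array for each of these 3, and without it they stood at -0.16, -0.04 and -0.15.

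Loci that Polycomb is known to keep silent gave no call. Of 13 measured, 2 were lower and 11 higher in Dnmt3a+/- cells with a median of 0.08, where 54.3% of all genes were lower. Of these loci 0 had an unadjusted p under 0.05 (limma, smallest adjusted p = 0.646). Cdkn2a, named here as the known target of Bmi1, read 7.64, 7.83 and 7.73 on the wild-type arrays, against 7.80, 7.84 and 7.76 on the Dnmt3a+/- arrays. The arrays overlapped and the difference was 0.06 (SE 0.11, interval -0.18 to 0.31). Hoxc13, a posterior Hox gene, differed by 0.14 (SE 0.11) with all Dnmt3a+/- arrays above wild-type, Pax7, a muscle and neural regulator, by 0.13 (SE 0.13), and Hoxd13, on 1 probe set, by -0.35 (SE 0.19). These moved with single arrays and with the filter. Hoxc13 was 0.06 both without wild-type replicate 3 and without the filter. Pax7 was 0.04 without Dnmt3a+/- replicate 2 and 0.23 without Dnmt3a+/- replicate 3. Hoxd13 was -0.14 without Dnmt3a+/- replicate 1, -0.53 without Dnmt3a+/- replicate 2, -0.62 with array weights and -0.0018 without the filter. On Dnmt3a+/- replicate 2, the array on which dim genes read high, the median of these loci was 0.16, against 0.01 and -0.02 on the other Dnmt3a+/- arrays. The part of that array in the list's direction was not tested.

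**Figure D4:**
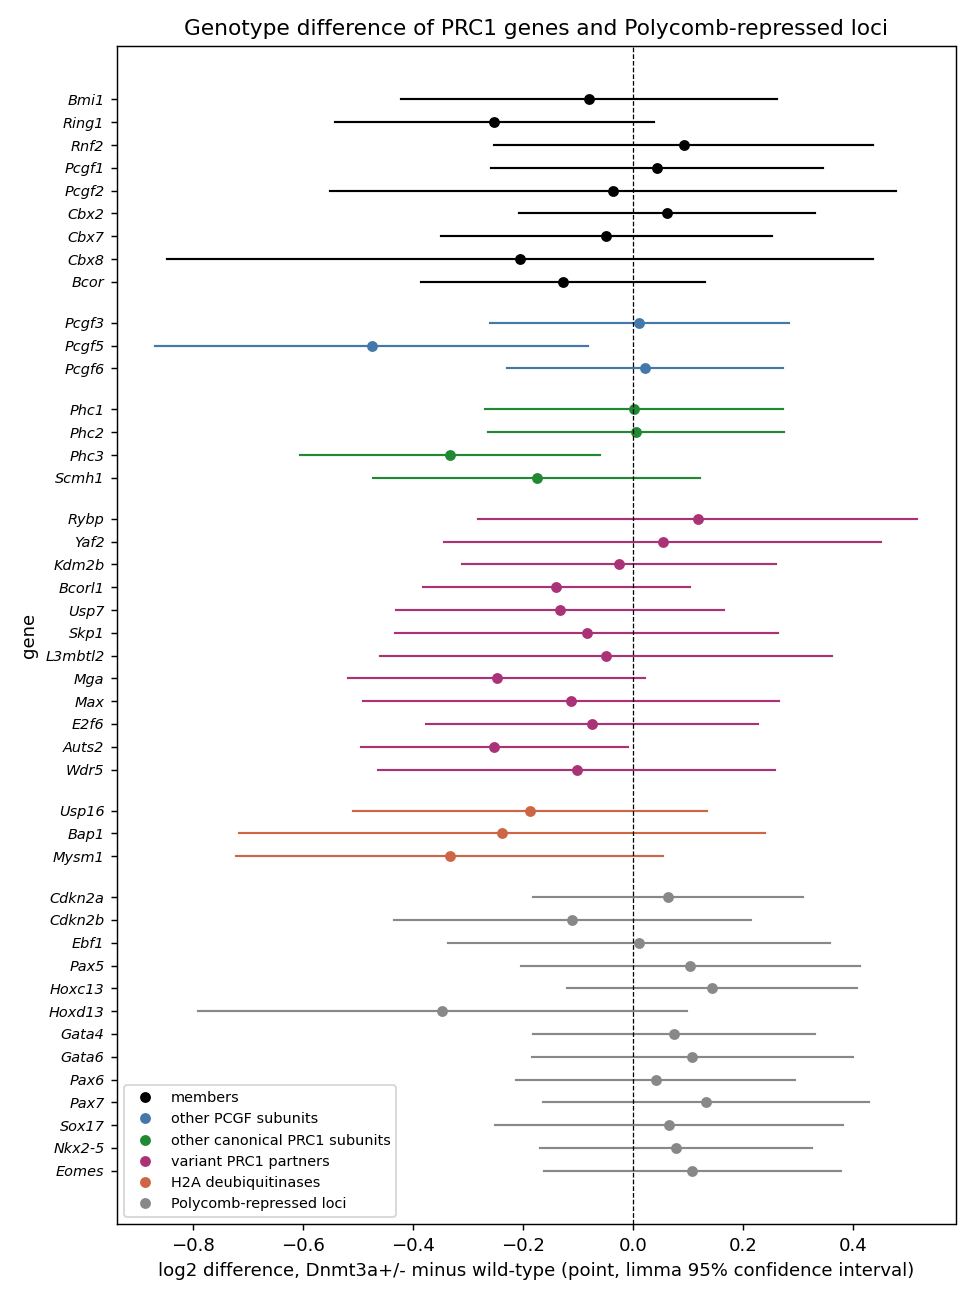
Log2 difference (Dnmt3a+/- minus wild-type, horizontal axis) with limma's 95% confidence interval for the 9 members (black) and for the 35 measured genes of the other lists, by list. All 9 member intervals include 0, and those of Pcgf5, Phc3 and Auts2 lie below it before adjustment.

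The members did not share a pattern over the arrays, and each had other genes that followed it closely. Among 14784 genes with at least 4 probe sets above the filter, the one with the highest Pearson correlation over the 6 arrays was Tmem237 for Bmi1 (0.999), Sertad1 for Ring1 (0.989), Pou2af1 for Rnf2 (0.987), Pcnx4 for Pcgf1 (0.986) and Myo19 for Pcgf2 (0.994). For Cbx2 it was A930009A15Rik (0.994), for Cbx7 Gipc3 (0.998), for Cbx8 Ptpdc1 (0.993) and for Bcor Isca2 (0.997). Each is the highest of many correlations over few arrays that share RNA and normalization, and is given as a description. The number of genes correlated above 0.9 was largest for Bcor, at 706, and smallest for Pcgf1, at 67. Bcor and Isca2 were both lowest on Dnmt3a+/- replicate 2. None of the 9 nearest genes was itself a member.

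**Figure D5:**
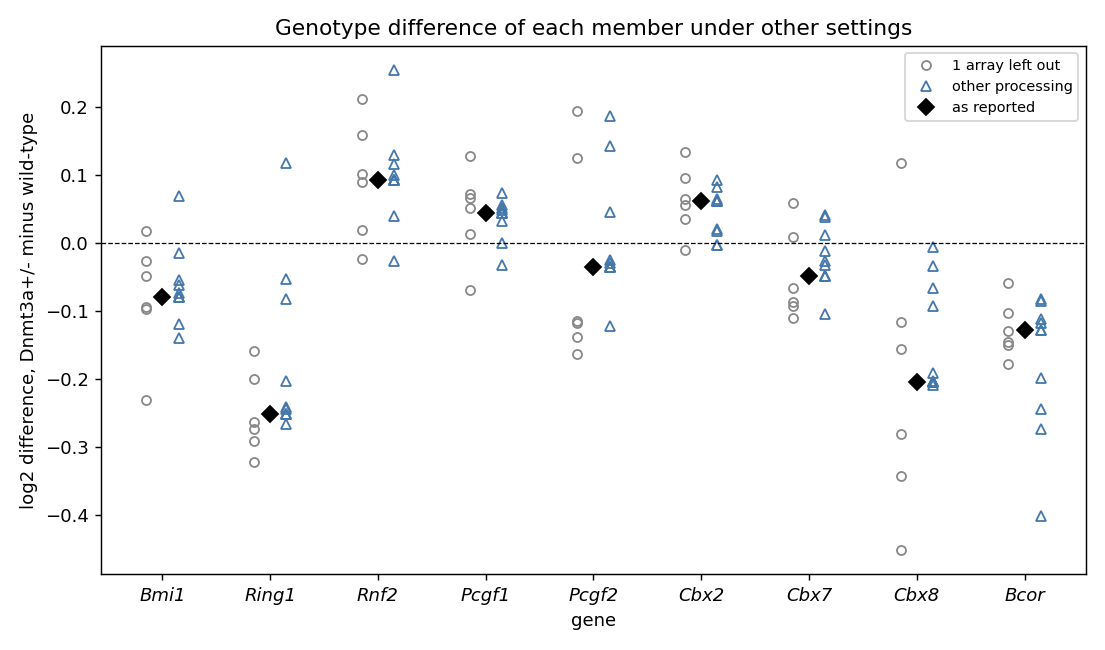
Log2 difference (Dnmt3a+/- minus wild-type) of each member as reported (diamond), with 1 array left out (circles) and under other processing (triangles). Bcor is the only member that stays below 0 throughout, from -0.40 to -0.06, while the Ring1 values run from -0.32 to 0.12.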

How the data were processed

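Total RNA of KLS cells was amplified as whole-transcript cDNA and hybridised in 1 colour, 1 sample per array, per the labels' protocols. The authors deposited normalized intensity values made with RMA in Partek, per the submitters' processing notes. Their versions and the genome build are not given in the sources used. The values (1.84 to 22239) were linear, with array medians of 59.8 to 61.6, so log2 was taken. Of 1256831 probe sets, 318760 had 1 platform symbol and 6684 several. Older symbols were updated where they name 1 gene of the RefSeq table. Probe sets above the median level (log2 5.89) were averaged per gene. The test was limma (version 3.58.1, R 4.3.3; lmFit and eBayes on genotype alone) over 20059 genes and 628415 probe sets, with Benjamini-Hochberg adjustment, after tests on simulated data. The named genes were the members, Dnmt3a, the stem and progenitor antigens, any gene of the wider lists past adjusted p 0.05 and otherwise the 3 with the smallest p in each list, and each member's most correlated gene. Cdkn2a was added as the known Bmi1 target. Members and lists were chosen with earlier results of these data known. Results were recomputed under 14 other settings, and under 2 more chosen after seeing the data. The number of arrays limits the precision.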

Additional observations from a re-analysis of the deposited data

How the results depend on the processing

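The 3 against 3 arrays allow no exact p under 0.1, the values cannot show a change shared by most genes because the arrays were normalized to nearly one distribution, and probe-set positions were not used. No setting gave a gene past adjusted p 0.05. Arrays of the same replicate number shared little deviation (same-number correlations of deviations -0.05, -0.09 and 0.11). With 3 arrays a genotype this cannot show whether they were paired by design. With the replicate block, 5 member probe sets instead of 9 had an unadjusted p under 0.05, while the differences themselves cannot change in this balanced design. That count was 4 with probe sets above the 75th percentile, 5 without the filter and 4 without each member's farthest probe set. These settings differ in the member probe sets tested, with 130 without the filter against 111 as reported. Shares over all probe sets are not given for them, so the probe-set counts in this section are not comparable. Members with an unadjusted p under 0.05 (limma) numbered 1 above the 75th percentile (7.34% of all genes) and 1 with the median of probe sets (6.78%). Members without overlap numbered 2 with the median of probe sets (13.9% of all genes) and 2 with current platform symbols only (15.8%). Without each member's farthest probe set the number was 1 (15.8%), with Bcor in place of Ring1. The members' median difference turned to 0.021 with the median of probe sets and 0.038 with array weights. Leaving out 1 array gave medians from -0.11 to 0.019, the last with 3 of 9 members lower without wild-type replicate 2, 3 to 7 members lower, 1 to 2 without overlap (22.5% to 31.8% of all genes) and 3 to 9 probe sets. The median of the 22 genes listed around PRC1 ran from -0.16 to -0.05. The cause of these changes was not tested.

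Without wild-type replicate 1 Bmi1 joined Ring1 in having no overlap, and without wild-type or Dnmt3a+/- replicate 3 Bcor did, where 31.4%, 23.7% and 31.8% of all genes did not overlap, so 2 of 9 members is no more than the background. No named gene was called under any setting. Bcor, Dnmt3a, Phc3, Pcgf5 and Auts2, among others, kept their sign under all 16 other settings. Some uncalled differences did change sign. Above the 75th percentile they were 0.069 for Bmi1, -0.032 for Pcgf1, -0.0033 for Cbx2, 0.042 for Cbx7, -0.014 for Phc2 and -0.11 for Slamf1. Without the filter they were -0.027 for Rnf2, -0.061 for Pcgf6 and -0.30 for Slamf1. With the median of probe sets they were 0.12 for Ring1, 0.19 for Pcgf2, 0.21 for Scmh1, -0.069 for Phc2 and 0.053 for Ly6a. With array weights they were 0.14 for Pcgf2, 0.038 for Cbx7, -0.033 for Pcgf6, -0.0070 for Pcgf3 and 0.049 for Ly6a. Ly6a was 0.0038 after a second quantile normalization and 0.013 after cyclic loess. Without the farthest probe set they were 0.045 for Pcgf2, -0.0033 for Cbx2 and 0.011 for Cbx7. With 1 array left out, the ranges that crossed 0 were -0.23 to 0.018 for Bmi1, -0.023 to 0.21 for Rnf2, -0.070 to 0.13 for Pcgf1, -0.16 to 0.19 for Pcgf2, -0.010 to 0.13 for Cbx2, -0.11 to 0.058 for Cbx7 and -0.45 to 0.12 for Cbx8. Outside the members they were -0.064 to 0.067 for Pcgf3, -0.041 to 0.069 for Pcgf6, -0.043 to 0.074 for Phc2, -0.10 to 0.077 for Ly6a and -0.063 to 0.13 for Slamf1.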
